A study of Rattus norvegicus with 6 samples.

Results

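The genes of antioxidant defence, glutathione and thioredoxin were followed in newborn rat ovaries treated in culture with connective tissue growth factor (CTGF). They were chosen by symbol from the annotation of the array: the superoxide dismutases Sod1 to Sod3, catalase (Cat), the glutathione peroxidases, peroxiredoxins, thioredoxins and thioredoxin reductases, the glutathione S-transferases, the glutathione enzymes Gclc, Gclm, Gss and Gsr, the haem oxygenases and Nqo1. These rules found 45 genes on 47 probe sets among the 14324 genes that had a probe set with 1 symbol. Prdx1 and Gsta4 had 2 probe sets each, and for them the one with the highest mean over the 6 arrays was used. All 45 symbols were also the current symbols in the RefSeq annotation of the rat.

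The 3 CTGF samples were ovaries of newborn female Sprague-Dawley rats cultured whole for 24 h with human CTGF at 500 ng/ml. The 3 control samples were ovaries of the same age, sex and strain cultured for 24 h without treatment. The RNA of a sample came from 2 to 3 pooled ovaries of litter mates that shared a culture well, and each of the 3 organ culture date batches named in the labels held 1 CTGF and 1 control sample. The comparison asked how CTGF changed the transcripts of the ovary before its follicles had assembled. Each value is the log2 signal of a probe set on an array, so a difference of 1 is a doubling.

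Superoxide dismutases turn superoxide into hydrogen peroxide. Catalase, the peroxiredoxins and the glutathione peroxidases then reduce the peroxide, the peroxiredoxins with electrons from thioredoxin and the glutathione peroxidases with electrons from glutathione, a tripeptide made by Gclc, Gclm and Gss. Glutathione S-transferases join glutathione to reactive compounds. Many of these genes are targets of the transcription factor Nrf2, which binds with a small Maf protein to antioxidant response elements in promoters and is held back in unstressed cells by Keap1. In the ovary these enzymes are known for protecting oocytes and the cells around them from oxidative damage.

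The promoters of the family show which members carry the core letters of this element near their start. Promoter windows of 300 bases (250 before to 50 after the start of a transcript) came from RefSeq for the assembly GRCr8, and 38 of the 45 genes had at least 1, with 44 windows in all. Gpx8, Gsr, Gstt1, Gstt2, Hmox1, Prdx6 and Sod3 had no entry. The core TGACNNNGC, searched on both strands, was in 13 of the 38 genes (34.2%), against 13.1% of all 27457 genes with a window. By window, the core was in 29.5% of the 44 windows and in 12.1% of all 33469. The genes were Gclm, Gpx2, Gsta1, Gsta3, Gstm5, Gstm7, Gstp1, Hmox2, Prdx1, Prdx4, Prdx5, Sod2 and Txnrd1. The AP-1 site TGANTCA, which can overlap this core, was in 4 of the 38 genes (10.5%), Gstm5, Gsto1, Gstp1 and Prdx1, against 8.04% of all genes, and in Gstp1 and Prdx1 it lay within the core (Prdx1 has 1 more, 248 bases before the start). A match is a run of letters and not a measured binding site. A gene without a match may hold a core outside its window, which was not searched.

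The 250 bases before the start are printed here for 4 genes that hold the core and for Sod1 and Prdx2, which hold none and whose signals were higher with CTGF in every batch. Each is read 5′ to 3′ along its gene, with the core in capitals. Gclm carries 1 core, Gstp1 and Prdx1 carry 1 core each with an AP-1 site inside it, and Gstm5 is the gene of the 38 with a pair of cores. In Gclm and Prdx1 the core lies on the opposite strand and so reads in reverse complement.
Gclm (chr2:213031885-213032134, plus strand): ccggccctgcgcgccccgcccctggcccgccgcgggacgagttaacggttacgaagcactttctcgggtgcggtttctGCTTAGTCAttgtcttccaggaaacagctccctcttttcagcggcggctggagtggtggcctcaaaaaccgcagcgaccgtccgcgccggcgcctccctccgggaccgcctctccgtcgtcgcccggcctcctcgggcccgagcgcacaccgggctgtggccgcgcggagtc
Prdx1 (chr5:135383656-135383905, plus strand): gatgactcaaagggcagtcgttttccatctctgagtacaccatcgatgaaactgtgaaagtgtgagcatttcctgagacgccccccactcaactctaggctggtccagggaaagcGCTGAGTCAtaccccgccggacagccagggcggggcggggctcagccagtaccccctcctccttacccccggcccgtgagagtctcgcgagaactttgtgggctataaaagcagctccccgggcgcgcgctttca
Gstp1 (chr1:210769706-210769955, minus strand): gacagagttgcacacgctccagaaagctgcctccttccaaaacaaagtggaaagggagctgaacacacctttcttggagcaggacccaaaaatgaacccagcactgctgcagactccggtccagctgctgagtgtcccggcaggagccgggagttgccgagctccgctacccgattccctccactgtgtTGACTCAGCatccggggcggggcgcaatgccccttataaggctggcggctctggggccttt
Gstm5 (chr2:198219519-198219768, plus strand): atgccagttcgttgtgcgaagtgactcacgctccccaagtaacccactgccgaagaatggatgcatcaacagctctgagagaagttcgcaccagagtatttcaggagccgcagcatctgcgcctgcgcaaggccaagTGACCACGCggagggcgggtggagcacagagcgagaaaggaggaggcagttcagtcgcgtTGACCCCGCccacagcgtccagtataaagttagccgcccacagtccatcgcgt
Sod1 (chr11:42942573-42942822, plus strand): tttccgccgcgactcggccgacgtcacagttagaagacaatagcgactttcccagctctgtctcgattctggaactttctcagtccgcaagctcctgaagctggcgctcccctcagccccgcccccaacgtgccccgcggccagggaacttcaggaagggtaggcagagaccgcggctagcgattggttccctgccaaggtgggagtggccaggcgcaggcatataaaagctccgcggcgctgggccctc
Prdx2 (chr19:40090983-40091232, minus strand): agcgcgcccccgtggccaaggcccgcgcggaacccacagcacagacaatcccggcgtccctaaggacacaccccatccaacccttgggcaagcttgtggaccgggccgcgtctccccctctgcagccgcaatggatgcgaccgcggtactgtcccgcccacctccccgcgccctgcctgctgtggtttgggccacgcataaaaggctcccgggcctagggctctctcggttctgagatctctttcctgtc
The core of Gstp1, TGACTCAGC, starts 61 bases before the start of the transcript, and that of Prdx1 has the same letters and lies 135 bases before it. The core of Gclm, TGACTAAGC, lies 172 bases before the start. Gstm5 has TGACCACGC at 113 bases and TGACCCCGC at 53 bases.

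The levels of the 45 genes were read against probe sets of 43 genes of other organs (retina, pancreas, pituitary and the like), which had a median signal of 24.4 and a 95th percentile of 45.2. The mean signal of 38 of the 45 genes was above that percentile, as it was for 54.4% of all 27342 probe sets. The 7 at or below it were Gpx2, Gpx3, Gpx5, Gpx6, Sod3, Gsta3 and Gstm3, and little can be read from their differences. The tissue had the markers of an ovary, with 10 of 10 measured oocyte markers and 7 of 8 granulosa markers above the same level (Amh was not). Array medians lay between 5.82 and 5.84 on the log2 scale.

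**Figure D1:**
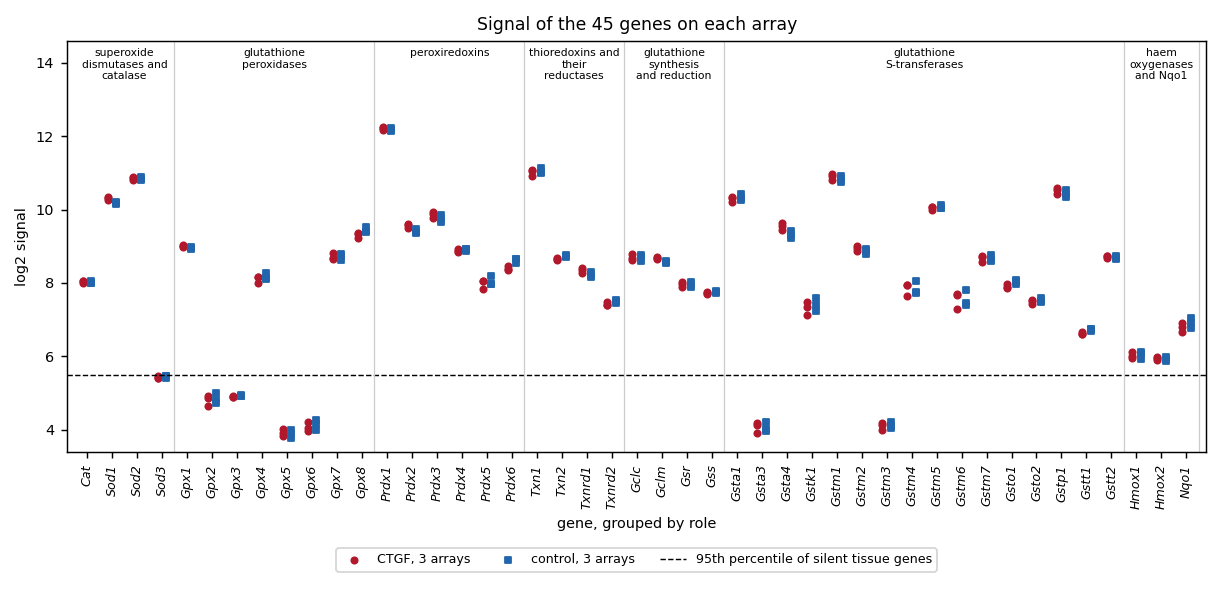
Log2 signal of the 45 genes on each array, grouped by role, with 3 CTGF arrays (red circles) and 3 control arrays (blue squares). The dashed line is the 95th percentile of genes of other organs (log2 5.50), and 7 genes have a mean at or below it. Levels of different probe sets are not comparable with each other.

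With CTGF the genes of this defence system differed little from the control. The log2 fold changes of the 45 genes ran from -0.22 (Prdx6) to 0.23 (Gsta4), with 20 above 0, 24 below and 1 at 0. Their median was -0.01, against -0.00 for all probe sets. In limma, blocked for culture batch, 0 of the 45 passed an adjusted p of 0.05, and 0% of all 27342 probe sets did (smallest adjusted p = 0.994 in limma for both). At an unadjusted p of 0.05 limma counted 2 of the 45, Prdx6 lower and Gsta4 higher, which is 4.44% of them against 3.35% of all probe sets (1.45% higher and 1.89% lower). The study's own criteria, a ratio above 1.2 or below 0.83 with a difference of signals above 10, were applied with that p of limma. They were met by 0 of the 45 and by 0.435% of all probe sets.

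The precision sets what these 6 arrays could show. The median standard error of a log2 fold change was 0.08 over the 45 genes. The 95% intervals of all 45 stayed within 0.45 of 0, the widest bound being that of Gsta4, so that larger changes lay outside the interval of every one of these genes. Each sample is a pool of whole ovaries, in which fewer cells of a type and less RNA per cell cannot be told apart.

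In 5 genes the CTGF array was above the control array of its batch in all 3 batches (Gsta4, Prdx2, Sod1, Gclm and Gpx1), and in 5 it was below (Prdx6, Gsto1, Gpx8, Gstt1 and Txn2). These are 11.1% of the genes each way, against 9.41% of all probe sets higher, 10.9% lower and 20.3% either way. In these data such a gene is the same as one whose 3 CTGF values and 3 control values do not overlap, since the mean of the 2 arrays of a batch is equal in the 3 batches for every probe set, to within 0.005. For the same reason the SDs of the CTGF and control groups mirror each other.

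**Figure D2:**
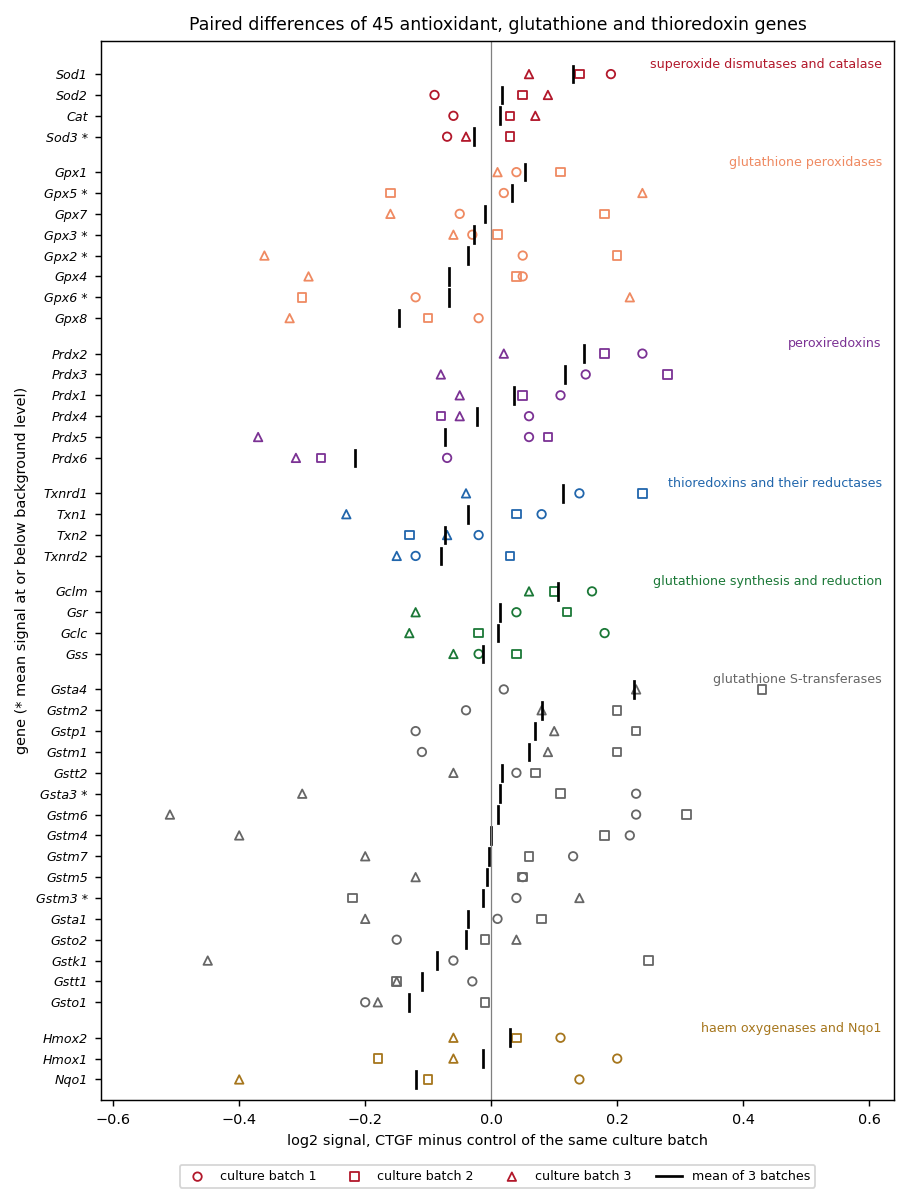
Difference in log2 signal, CTGF minus control of the same culture batch, for each of the 45 genes by role (circle, square and triangle for batches 1, 2 and 3, black bar for their mean). Most bars lie close to 0, between -0.22 for Prdx6 and 0.23 for Gsta4. The triangles of batch 3 lie left of 0 for 31 of the genes.

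Of the 3 superoxide dismutases and catalase, Sod1, the copper and zinc enzyme of the cytosol, was the one with a single direction. Its log2 signals were 10.34, 10.31 and 10.27 in CTGF ovaries, against 10.15, 10.17 and 10.21 in control ovaries. All 3 CTGF values were above all 3 control values. Sod1 thus had a log2 fold change of 0.13 ± 0.07 (SE, unadjusted p = 0.0939, adjusted p = 0.994 in limma).

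Sod2, the manganese enzyme of mitochondria, had log2 signals of 10.80, 10.87 and 10.89 in CTGF ovaries and 10.89, 10.82 and 10.80 in control ovaries. Cat, the catalase of peroxisomes, had 8.00, 8.04 and 8.06 in CTGF ovaries and 8.06, 8.01 and 7.99 in control ovaries. For both genes the groups overlapped and the log2 fold change was close to 0 (0.02 for Sod2 and 0.01 for Cat). Sod3, the extracellular enzyme, was at -0.03 and below background. The copper chaperone Ccs, which loads Sod1 with copper, was at -0.01.

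Of the 8 glutathione peroxidases 4 were above background. Gpx8, a membrane protein of the endoplasmic reticulum, had log2 signals of 9.36, 9.32 and 9.21 in CTGF ovaries and 9.38, 9.42 and 9.53 in control ovaries. Every CTGF value was below every control value, though the gap between the groups was only that of 9.36 and 9.38. Its log2 fold change was -0.15 ± 0.08 (SE, unadjusted p = 0.116, adjusted p = 0.994 in limma), and the batch differences were -0.02, -0.10 and -0.32.

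Gpx1, the main cytosolic glutathione peroxidase, had 9.0, 9.03 and 8.98 in CTGF ovaries and 8.96, 8.92 and 8.97 in control ovaries, a log2 fold change of 0.05 with the groups just apart. Gpx4, which reduces lipid hydroperoxides in membranes and guards cells against ferroptosis, had 8.16, 8.16 and 7.99 in CTGF ovaries and 8.11, 8.12 and 8.28 in control ovaries. Its groups overlapped at a log2 fold change of -0.07, and the CTGF array was lower in batch 3 alone. Gpx7, of the endoplasmic reticulum, was at -0.01. The others, Gpx2 of the gut (-0.04), Gpx3 of plasma (-0.03), Gpx5 of the epididymis (0.03) and Gpx6 of the olfactory epithelium (-0.07), were not above background.

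The peroxiredoxins held the lowest fold change of the 45 genes. Prdx6, which uses glutathione rather than thioredoxin and also has a phospholipase activity, had log2 signals of 8.47, 8.37 and 8.35 in CTGF ovaries, against 8.54, 8.64 and 8.66 in control ovaries. All 3 CTGF values were below all 3 control values, least so in batch 1. The signal averaged 337.2 in CTGF ovaries and 391.9 in control ovaries, a ratio of 0.861. The log2 fold change was -0.22 ± 0.08 (SE), with a 95% interval of -0.40 to -0.03 (unadjusted p = 0.0268, adjusted p = 0.994 in limma). Without batch 2 its unadjusted p in limma was 0.145, and without batch 3 it was 0.136, with adjusted p = 0.988 and 0.781.

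Prdx2, a cytosolic peroxiredoxin abundant in red cells, was higher with CTGF. Its log2 signals were 9.60, 9.57 and 9.49 in CTGF ovaries and 9.36, 9.39 and 9.47 in control ovaries. The groups did not overlap, but in batch 3 the arrays differed by only 0.02. The log2 fold change was 0.15 ± 0.07 (SE, unadjusted p = 0.0878, adjusted p = 0.994 in limma). Of 10 erythroid markers 6 were measured and 1, Hbb, was above background (Alas2, Slc4a1, Ahsp, Epb42 and Klf1 were not). Their summed signal ran from 801.9 to 971.9 in CTGF ovaries and from 824.2 to 998.8 in control ovaries, most of it from Hbb (mean signal 778.7). The log2 of that sum, CTGF minus control, differed by 0.24, -0.32 and 0.06 in batches 1, 2 and 3, against 0.24, 0.18 and 0.02 for Prdx2. The part of the erythroid markers in the difference of Prdx2 was not tested.

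Prdx1, another cytosolic peroxiredoxin, had log2 signals of 12.24, 12.21 and 12.16 in CTGF ovaries and 12.13, 12.16 and 12.21 in control ovaries. The groups overlapped at a log2 fold change of 0.04, and the second probe set of the gene gave 0.05. The mitochondrial Prdx3 was at 0.12 with overlapping groups, Prdx4 of the endoplasmic reticulum at -0.02 and Prdx5 of mitochondria and peroxisomes at -0.07.

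The 4 genes of the thioredoxin system lay between -0.08 and 0.11 on the log2 scale, without a common direction. Txn1, the cytosolic thioredoxin, had log2 signals of 11.07, 11.05 and 10.91 in CTGF ovaries and 10.99, 11.01 and 11.14 in control ovaries. Txnrd1, the selenoenzyme that reduces it, had 8.35, 8.40 and 8.26 in CTGF ovaries and 8.21, 8.16 and 8.30 in control ovaries. Both pairs of groups overlapped, at log2 fold changes of -0.04 for Txn1 and 0.11 for Txnrd1 (unadjusted p = 0.193, adjusted p = 0.994 in limma for Txnrd1). Mitochondrial Txn2 had a single direction at -0.07, with batch differences of -0.02, -0.13 and -0.07, and its reductase Txnrd2 was at -0.08.

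In glutathione synthesis Gclm, the modifier subunit that raises the activity of the rate-limiting ligase, had log2 signals of 8.70, 8.67 and 8.65 in CTGF ovaries and 8.54, 8.57 and 8.59 in control ovaries. Every CTGF value was above every control value. This was a log2 fold change of 0.11 ± 0.06 (SE), a ratio of 1.08 (unadjusted p = 0.147, adjusted p = 0.994 in limma).

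Gclc, the catalytic subunit of that ligase, had 8.78, 8.68 and 8.62 in CTGF ovaries and 8.60, 8.70 and 8.75 in control ovaries. Gsr, which reduces oxidized glutathione, had 7.98, 8.02 and 7.90 in CTGF ovaries and 7.94, 7.90 and 8.02 in control ovaries. The groups of both overlapped and both had a log2 fold change of 0.01. Gss, which adds the last amino acid of glutathione, was at -0.01.

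Of the 16 glutathione S-transferases 14 were above background, and the fold changes had a median of -0.00. Gsta4, which acts on the aldehyde hydroxynonenal from oxidized lipids, had the highest fold change of the 45 genes. Its log2 signals were 9.43, 9.64 and 9.54 in CTGF ovaries, against 9.41, 9.21 and 9.31 in control ovaries. The groups did not overlap, though the batch differences varied widely at 0.02, 0.43 and 0.23. The signal averaged 744.0 in CTGF ovaries and 635.7 in control ovaries, a ratio of 1.17. The log2 fold change was 0.23 ± 0.09 (SE), with a 95% interval of 0.00 to 0.45 (unadjusted p = 0.0466, adjusted p = 0.994 in limma). Without batch 2 the unadjusted p of Gsta4 in limma was 0.257, and without batch 3 it was 0.212, with adjusted p = 0.988 and 0.781.

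A second probe set of Gsta4 had 9.17, 9.34 and 9.26 in CTGF ovaries and 9.23, 9.06 and 9.14 in control ovaries. There the groups overlapped, and the log2 fold change was 0.11 ± 0.08 (SE, unadjusted p = 0.222, adjusted p = 0.994 in limma).

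**Figure D3:**
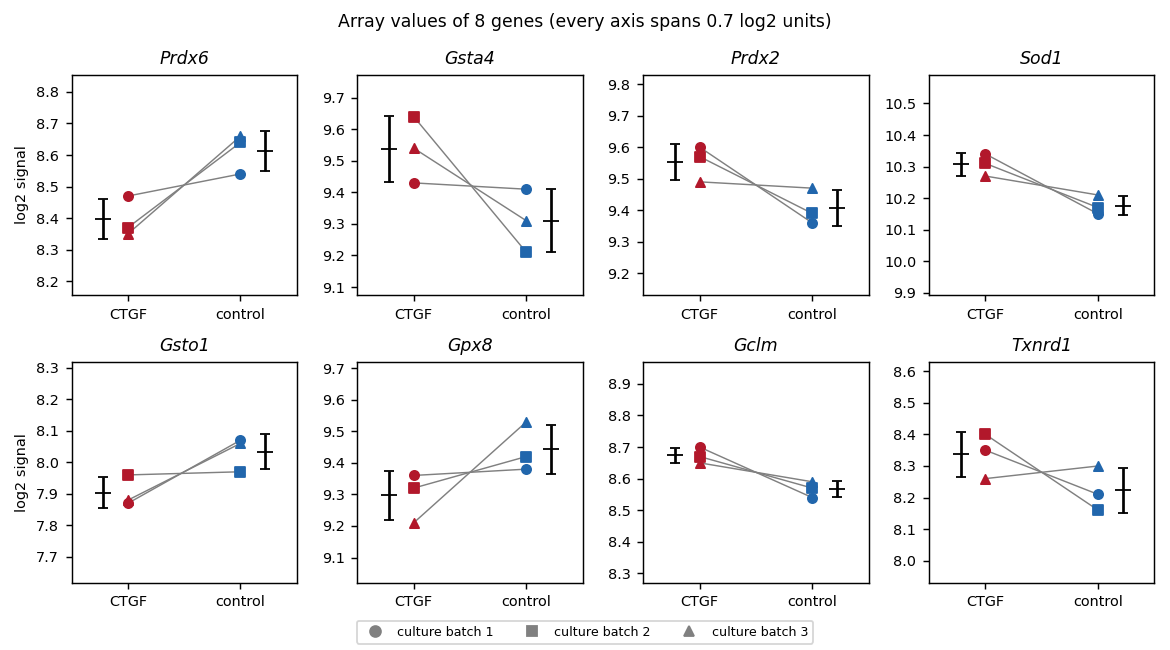
Log2 signal of 8 genes in CTGF (red) and control (blue) samples, with lines between the samples of a culture batch and, beside each group, its mean and SD (n = 3). The groups do not overlap for Prdx6, Gsta4, Prdx2, Sod1, Gsto1, Gpx8 and Gclm, and they overlap for Txnrd1. Each axis spans 0.7 log2 units and starts at a different level.

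Next by p among the transferases were Gsto1 and Gstt1. Gsto1, an omega-class enzyme that also reduces thiols, had log2 signals of 7.87, 7.96 and 7.88 in CTGF ovaries and 8.07, 7.97 and 8.06 in control ovaries. In batch 2 these differed by 0.01 only, and with array medians centred Gsto1 had no single direction. Its log2 fold change was -0.13 ± 0.07 (SE, unadjusted p = 0.115, adjusted p = 0.994 in limma). Gstt1, of the theta class, had 6.66, 6.60 and 6.60 in CTGF ovaries and 6.69, 6.75 and 6.75 in control ovaries, a log2 fold change of -0.11 ± 0.07 (SE).

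Of the 3 transferases with the highest mean signal Gstm1, of the mu class, had 10.81, 10.96 and 10.91 in CTGF ovaries and 10.92, 10.76 and 10.82 in control ovaries. Gstp1, of the pi class, had 10.41, 10.58 and 10.52 in CTGF ovaries and 10.53, 10.35 and 10.42 in control ovaries. Gsta1, of the alpha class, had 10.32, 10.35 and 10.21 in CTGF ovaries and 10.31, 10.27 and 10.41 in control ovaries. The groups of all 3 overlapped, at log2 fold changes of 0.06, 0.07 and -0.04. The other 10 transferases lay between -0.09 (Gstk1) and 0.08 (Gstm2).

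Some genes of the same class lie side by side in the RefSeq annotation. Neighbouring members were Gstm3, Gstm2, Gstm1 and Gstm4, Gstm6 and Gstm7, Gsto1 and Gsto2, Gsta1 and Gsta3, and Gpx5 and Gpx6, and RefSeq names further genes alike to Prdx1, Gsta4, Txn1, Gstm3 and Gsta3. How far a probe set of one of these genes also measures its relatives was not tested.

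The haem oxygenases break down haem, and Nqo1 reduces quinones. Hmox1, the inducible enzyme, had log2 signals of 6.13, 5.94 and 6.0 in CTGF ovaries and 5.93, 6.12 and 6.06 in control ovaries. Nqo1 had 6.92, 6.80 and 6.65 in CTGF ovaries and 6.78, 6.90 and 7.05 in control ovaries. Both were higher with CTGF in batch 1 and lower in batches 2 and 3, and their log2 fold changes were -0.01 and -0.12 with SEs of 0.09 and 0.11. Hmox2, the constitutive enzyme, was at 0.03.

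The batches did not have the same direction over the 45 genes. The median difference, CTGF minus control, was 0.04 in batch 1, 0.05 in batch 2 and -0.06 in batch 3, against 0.01, 0.00 and -0.01 over all probe sets above background. The CTGF array was higher for 27 of the 45 genes in batch 1 (60%), for 32 in batch 2 (71.1%) and for 14 in batch 3 (31.1%). Among all probe sets above background these shares were 51.1%, 49.8% and 45.9%, and among all probe sets 48.1%, 45.8% and 49.7%. Without batch 3 the median over the 45 genes was 0.055, and without batch 1 or without batch 2 it was -0.035.

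**Figure D4:**
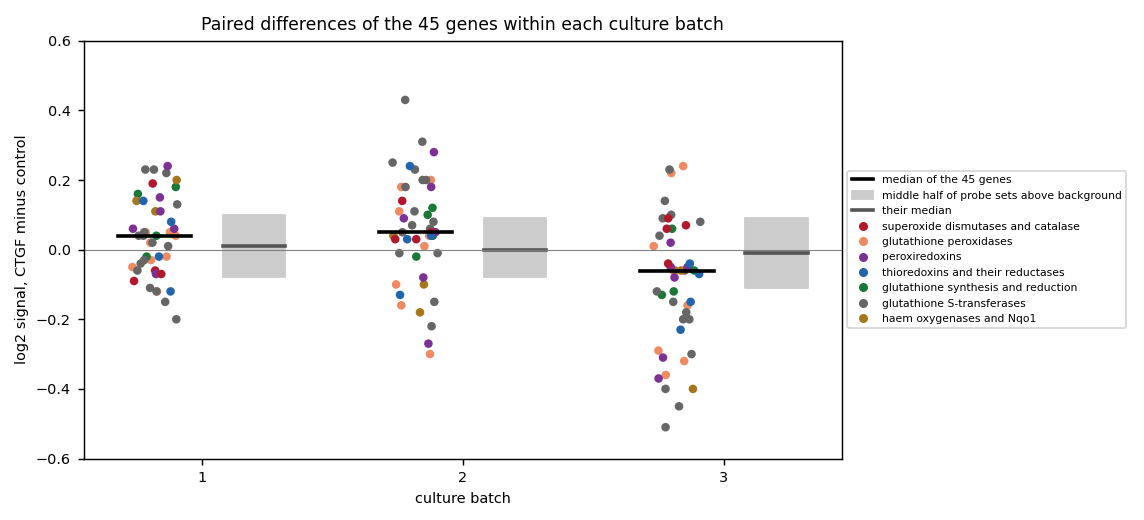
Difference in log2 signal, CTGF minus control, of each of the 45 genes in the 3 culture batches (points coloured by role, black bar for the median). Grey boxes span the quartiles of all probe sets above background. The median of the genes is 0.04, 0.05 and -0.06 in batches 1, 2 and 3.

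Of the 45 genes 16 (35.6%) were higher with CTGF in batches 1 and 2 and lower in batch 3. This held for 13.1% of all probe sets and 16.6% of those above background. The lists of NADPH supply and of reactive oxygen genes described below were also mostly higher in batches 1 and 2 and lower in batch 3. Of these 16 genes 7 were glutathione S-transferases. Gstm6, of the mu class, differed by 0.23, 0.31 and -0.51 in batches 1, 2 and 3, and Gstm4 by 0.22, 0.18 and -0.40. Prdx5 differed by 0.06, 0.09 and -0.37. Gstk1, of the kappa class, was lower in batch 1 as well as in batch 3, at -0.06, 0.25 and -0.45. All 4 genes of the thioredoxin system and all 3 of the haem oxygenase and Nqo1 group were lower with CTGF in batch 3. Sod2 and Cat were higher in batch 3 (0.09 and 0.07) and lower in batch 1. As a description, the differences of the 45 genes in batches 1 and 2 had a Pearson correlation of 0.23, those in batches 1 and 3 one of -0.27 and those in batches 2 and 3 one of -0.10. These points share arrays, and the centring of each batch on the mean of its pair is part of every value.

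The summed signal of stromal markers had the same directions in the 3 batches as the median of the 45 genes. Of 8 such markers 7 were measured and all 7 were above background, and their summed signal ran from 3957.5 to 4975.1 in CTGF ovaries and from 4473.4 to 5647.7 in control ovaries. The log2 of that sum, CTGF minus control, differed by 0.15 in batch 1, 0.15 in batch 2 and -0.51 in batch 3. All 7 markers were higher with CTGF in batch 1, 5 of the 7 were higher in batch 2, and all 7 were lower in batch 3. Those lower in batch 2 were Pdgfra (-0.14) and Lum (-0.08). For endothelial markers, 6 of 8 measured and 3 of those above background (Cdh5, Tie1 and Egfl7 were not), the same difference was 0.02, -0.09 and -0.31, with summed signals of 445.4 to 497.3 in CTGF ovaries and 489.8 to 552.7 in control ovaries. Their part in the differences of the 45 genes was not tested.

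In summed signal, oocyte markers differed from the directions of the 45 genes in batches 2 and 3, and granulosa markers in batch 1 alone. The summed signal of the 10 measured of 14 oocyte markers ran from 5446 to 5888 in CTGF ovaries and from 5195.4 to 5624.3 in control ovaries. Its log2 difference was 0.07, -0.05 and 0.18 in batches 1, 2 and 3. For granulosa markers, 8 of 9 measured and 7 of those above background, the same difference was -0.08, 0.17 and -0.01. Of these 8 granulosa markers 4 were higher with CTGF in batch 1 and 6 in batch 2, and 7 were lower in batch 3. Their part in the differences of the 45 genes was not tested.

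The regulators of these genes had fold changes between -0.06 and 0.10 on the log2 scale. Of 9 Nrf2 regulators, all measured, 6 had a fold change above 0 and 3 below, and 0 had an unadjusted p under 0.05 in limma. Higher with CTGF were 5 of the 9 in batch 1, 5 in batch 2 and 8 in batch 3, against 48.1%, 45.8% and 49.7% of all probe sets. The 1 lower in batch 3 was Nfe2l2 (-0.22). Nfe2l2, which encodes Nrf2, had log2 signals of 9.98, 10 and 9.87 in CTGF ovaries and 9.98, 9.96 and 10.09 in control ovaries, a log2 fold change of -0.06 ± 0.08 (SE). Keap1, its inhibitor, was at 0.04. The members with the smallest p were Cul3, the ubiquitin ligase scaffold that works with Keap1 (0.10, one direction in all 3 batches), Mafk, a small Maf partner (0.07), and Nfe2l1, a relative of Nrf2 (0.06).

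Fold changes were also set beside the antioxidant response element core, and the ranges with and without it overlapped. The 13 genes with the core had a median of 0.01, a range of -0.07 to 0.11 and 1 gene of a single direction in all 3 batches, Gclm. The 25 genes with a window and no core had a median of -0.01, a range of -0.13 to 0.23 and 6 genes of a single direction, 4 higher and 2 lower. The 7 genes without an entry had a median of -0.03, a range of -0.22 to 0.02 and 3 genes of a single direction, all lower, where 20.3% of all probe sets had one. Among the printed promoters, Gclm (0.11), Prdx1 (0.04), Gstp1 (0.07) and Gstm5 (-0.01) hold the core. Sod1 (0.13) and Prdx2 (0.15) do not, but they were picked for printing because they were higher in every batch. Their fold changes therefore give no comparison of genes with and without the core.

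Other genes of glutathione and thiol chemistry gave low counts as well. Of 14 genes of the glutathione cycle 12 were measured, with 6 above 0 and 6 below. The smallest p there belonged to Abcc1, an exporter of glutathione conjugates (-0.13), Ggct, which splits gamma-glutamyl peptides (0.12), and Oplah, which opens the oxoproline ring (-0.09). Of 14 thiol repair genes 13 were measured, with 4 above 0 and 9 below, led by Txndc12, a thioredoxin-like protein of the endoplasmic reticulum (-0.10), Txnl1, a cytosolic thioredoxin-like protein (0.09), and the mitochondrial glutaredoxin Glrx2 (-0.09). Of 15 other detoxifying enzymes 13 were measured, with 4 above 0, 8 below and 1 at 0. The smallest p there were those of Blvrb, a biliverdin reductase below background (-0.35), Hpgds, a prostaglandin D synthase of the transferase family (-0.16), and Akr7a3, an aldehyde reductase below background (0.10). None of these 3 lists had a gene at an unadjusted p under 0.05 in limma, where 3.35% of all probe sets were. Higher with CTGF in batches 1, 2 and 3 were 5, 6 and 6 of the 12 genes of the glutathione cycle. For thiol repair these counts were 5, 6 and 3 of 13, and for the other detoxifying enzymes 4, 6 and 4 of 13. The shares over all probe sets were 48.1%, 45.8% and 49.7%.

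NADPH supplies the electrons for both thioredoxin and glutathione reduction. Of 8 listed genes of NADPH supply, which include the pentose phosphate enzymes Tkt and Taldo1, 6 were measured, with 3 above 0 and 3 below and 0 at an unadjusted p under 0.05 in limma. Higher with CTGF in batches 1, 2 and 3 were 5, 5 and 1 of these 6 genes, against 48.1%, 45.8% and 49.7% of all probe sets. Idh2, the mitochondrial isocitrate dehydrogenase, was the lowest at -0.18, with batch differences of 0.09, -0.03 and -0.60, the last far below the others.

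Among 8 genes that make reactive oxygen species or serve Sod1, 7 were measured, and 2 had an unadjusted p under 0.05 in limma, where 3.35% of all probe sets were. The CTGF array was higher for 5, 5 and 1 of the 7 in batches 1, 2 and 3, against 48.1%, 45.8% and 49.7% of all probe sets. Cybb, the catalytic subunit of the NADPH oxidase of phagocytes, had log2 signals of 7.99, 7.93 and 7.90 in CTGF ovaries, against 8.13, 8.18 and 8.22 in control ovaries. The groups did not overlap. Cybb had a log2 fold change of -0.24 ± 0.07 (SE, unadjusted p = 0.0132, adjusted p = 0.994 in limma). The summed signal of 9 macrophage markers, all measured and above background, lay between 1792.2 and 1819.8 in CTGF ovaries and between 1862 and 1896.6 in control ovaries, with log2 differences of -0.04, -0.03 and -0.08 in the 3 batches. Of the 9 markers 7 had a log2 fold change below 0, with a median of -0.11. The complement genes C1qa (-0.21), C1qb (-0.12) and C1qc (-0.15) were lower with CTGF in all 3 batches. The other markers had no single direction over the batches: Cd163 (-0.14), Adgre1 (-0.11), Mrc1 (-0.07), Cd14 (-0.01), Cd68 (0.00) and Csf1r (0.07). The part of these markers in the difference of Cybb was not tested.

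Duox2, a dual oxidase that releases hydrogen peroxide, had 7.38, 7.49 and 7.30 in CTGF ovaries and 7.14, 7.02 and 7.22 in control ovaries. Here too the groups did not overlap, with CTGF above. Duox2 had a log2 fold change of 0.26 ± 0.09 (SE, unadjusted p = 0.0247, adjusted p = 0.994 in limma). Its signals were 168.0 in CTGF ovaries and 140.0 in control ovaries, a rounded ratio of 1.2, right at the study's threshold. With the p of limma it met the study's criteria, as 0.435% of all probe sets did. The study's own list of changed genes, drawn with the p of a 2-way analysis of variance, does not name it. Whether Duox2 meets the criteria with that p is not given here. Cyba, the partner subunit of Cybb, was at -0.03, Nox4 at 0.02 and Xdh, the xanthine dehydrogenase, at 0.05.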

How the data were processed

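The authors summarized the probes of Rat Gene 1.0 ST arrays to log2 values with RMA in Partek, per the labels and the methods, and the deposited log2 values cover 27342 probe sets (15097 with 1 symbol, 323 with several, 11922 with none). Batch differences had been removed before deposit by a step not given in the sources used here. Arrays are paired by the organ culture date batch of the labels, which the methods block for. CTGF minus control was fitted with limma (version 3.58.1, R version 4.3.3), with the batch block and no filter, which leaves 2 residual degrees of freedom beside 4.22 prior ones. Benjamini-Hochberg adjustment ran over all probe sets. Signals are un-logged values. Pools of a batch may share a litter, so p-values measure the spread between these samples, and the number of arrays limits precision.

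The 45 genes and the other lists were chosen with earlier results of these data known. Values on every array are given for genes with an unadjusted p under 0.05, the 6 with the smallest p and one sign, 13 genes set by name, and the transferases with the 3 highest means and 3 smallest p, and up to 3 genes of each other list are named by p. Keap1, Nfe2l2, Nox4, Xdh, Ccs, the single macrophage markers and the genes named for their batch differences were picked for naming after their values were seen. Alternatives were no block, quantile normalization, centred medians, a filter on low values, trend and robust moderation, the methods' 2-way test without moderation, each replicate left out, other background levels and criteria, and all probe sets of a gene. No gene coordinates are printed outside the RefSeq promoters, because the array was annotated on a different assembly.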

Additional observations from a re-analysis of the deposited data

How the results depend on the processing

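Of the 45 genes, 0 passed an adjusted p of 0.05 in limma under any alternative, and 0 passed in the methods' 2-way test. The count at an unadjusted p under 0.05, 2 with the batch block, was 9 with no replicate block (Gclm, Gpx8, Gsta4, Gsto1, Gstt1, Prdx2, Prdx6, Sod1 and Txn2, with 4415 of all probe sets), a fit with 4 nominal residual degrees of freedom although only 2 remain. It was 1 with the filter on low values (Prdx6, over 41 of the genes, with 635 of 19994 probe sets). It was 0 in the methods' 2-way test, with 1147 of all probe sets (unadjusted p = 0.1 for Prdx6 and 0.196 for Gsta4, by that test and not limma). It was 3 with trend and robust moderation (Gsta4, Prdx6 and Sod1, with 881 of all probe sets). It ranged from 0 to 3 without one replicate, being 0 without replicate 2. Over all 27342 probe sets the count without one replicate ranged from 645 to 1244. The study's criteria were met by a count that ranged from 0 to 2 (Gsta4 and Prdx6 without replicate 1, Gstm6 without replicate 3). The share of all probe sets at these criteria without a replicate is not given, so these counts cannot be set against it. The count in one direction ranged from 18 to 28 with only 2 batches left. That range cannot be set against the 10 over 3 batches, because 2 signs match more often than 3. No share over all probe sets is given beside it. The median log2 fold change ranged from -0.035 to 0.055. The positive median was that without replicate 3, and with array medians centred it was 0.01. That centring also left 9 genes in one direction, as Gsto1 no longer had one.

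Without one replicate, 11 of the 22 genes given on every array changed sign. Their log2 fold changes then ranged from -0.02 to 0.05 (Cat), -0.08 to 0.08 (Gclc), -0.12 to 0.04 (Gpx4), -0.04 to 0.08 (Gsr), -0.10 to 0.04 (Gsta1), -0.01 to 0.14 (Gstm1), -0.01 to 0.16 (Gstp1), -0.12 to 0.07 (Hmox1), -0.25 to 0.02 (Nqo1), -0.02 to 0.07 (Sod2) and -0.10 to 0.06 (Txn1). Prdx6 ranged from -0.29 to -0.17 and Gsta4 from 0.12 to 0.33. The alternatives that kept all arrays reversed 0 of the 22. The causes were not tested.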

Other observations

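A pair of probe sets carried both symbols Gsta5 and Gsta2 and were left out of the 45 genes for that reason. Both were below background, with signals of 16.8 in CTGF ovaries against 17.8 in control ovaries for the first, and 19.0 in CTGF ovaries against 18.2 in control ovaries for the second. Their log2 fold changes were -0.08 and 0.06, and the groups did not overlap in either, one lower and one higher with CTGF.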
